A study of Mus musculus with 4 samples.

Results

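The regions described here are the accessible sites of B16-F10 mouse melanoma cells that lie in the most crowded megabases of chromosomes 1 to 19. They were chosen on the deposited peak calls of all 4 libraries. Calls that overlapped by at least 1 bp were merged into union regions, the union regions were counted by midpoint in fixed bins of 1 Mb, and every region in a bin with 70 or more was taken. This gave 24610 of 71187 union regions (34.6%), in 274 of the 2339 bins that held any region (11.7%). The count per bin is what the choice used, so the density itself is a description and not a finding.

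The assay was ATAC-seq. The Tn5 transposase cuts DNA that nucleosomes leave exposed and tags the cut ends for sequencing. Per the labels, 2 libraries are B16-F10 cells of wild-type Ssbp4 genotype and 2 are B16-F10 cells in which Ssbp4 was knocked out with CRISPR-Cas9. Both genotypes were grown in the same serum-containing medium, and nuclei were taken from thawed, cryopreserved cells. The protocol describes electroporation of Cas9 with a mixture of guides against Ssbp4, or with a control guide against an intergenic site of chromosome 2. It names no isolation of single clones and does not say which guide the wild-type libraries received. The labels also do not say whether the libraries of a genotype came from separate cultures, so the spread between replicates may be technical. The protein made by Ssbp4 is thought to act with the LIM-domain-binding cofactors that bring enhancers and promoters together.

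Open chromatin is spread unevenly along mammalian chromosomes. Stretches rich in active genes carry many promoters and enhancers close together, while gene-poor stretches, often held at the nuclear lamina, have few open sites. A peak caller judges each site against a background taken from the reads around it, so a site in a crowded stretch is set against more neighbouring reads than an isolated one. Gene positions of the GRCm39 build, to which all positions below refer, were not used here, so bins and regions are named by position alone and no sequence is printed.

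Wild-type replicates 1 and 2 had 58292 and 62085 calls on chromosomes 1 to 19, and knockout replicates 1 and 2 had 49319 and 56861. Sets of 4 values below keep this order of libraries. Their median folds over local background were 5.84, 6.15, 4.57 and 4.72 in the same order, so both knockout lists were weaker, and knockout replicate 1 had the shortest list. Read totals were not used. No permutation p over 2 against 2 libraries can go below 0.333, so no difference between genotypes reached a threshold of 0.05, and the values of each library are given.

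The median occupied bin held 22 union regions, and the fullest held 149. Among the dense bins the count ranged from 70 to 149 with a median of 86, and 66 of them held 100 or more. At the threshold, 18 bins held 70 or 71 regions and 24 held 68 or 69. In the median bin just inside and just outside, 66.0% and 65.7% of the regions were called in every library. The median share called in both wild-type libraries alone was 4.26% and 4.41%, and that called in both knockout libraries alone was 1.42% and 0.725%. Open sequence had medians of 72.1 and 70.2 kb per bin.

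**Figure D1:**
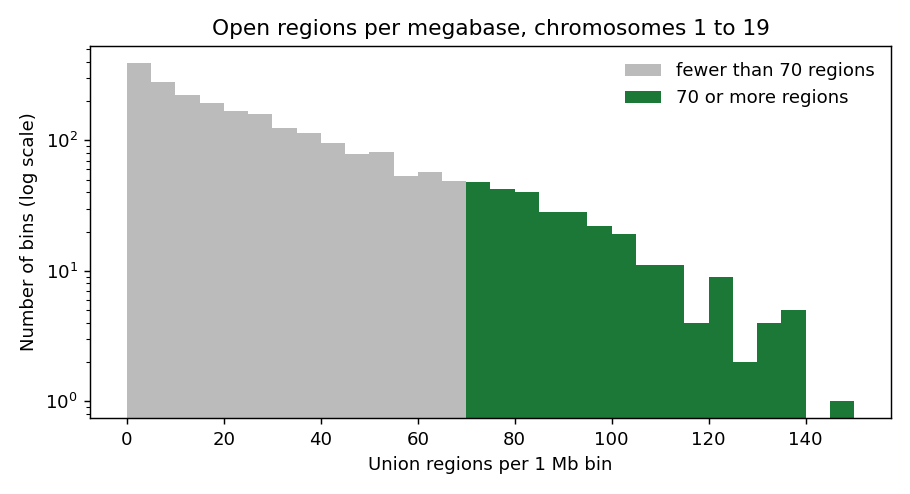
Number of 1 Mb bins (log scale) against the number of union regions per bin, in steps of 5 regions, over the 2339 occupied bins. The 274 bins with 70 or more regions (green) form the tail of one continuous distribution whose median is 22.

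The fullest bin lay at 140 to 141 Mb of chromosome 4. It held 114 and 119 calls in wild-type replicates 1 and 2 and 97 and 130 in the knockout replicates, so the genotypes overlapped. The next were 80 to 81 Mb of chromosome 10 (139 regions), 117 to 118 Mb of chromosome 11 (138), 79 to 80 Mb of chromosome 15 (137) and 124 to 125 Mb of chromosome 8 (135). The first 10 also took in 112 to 113 Mb of chromosome 12, 167 to 168 Mb of chromosome 2, 120 to 121 Mb of chromosome 11, 91 to 92 Mb of chromosome 6 and 27 to 28 Mb of chromosome 17, with 130 to 135 regions each. Calls at 80 to 81 Mb of chromosome 10 numbered 121, 122, 102 and 117, with both knockout libraries lower. At 91 to 92 Mb of chromosome 6 they numbered 95 and 96 against 77 and 100, and the genotypes overlapped.

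Crowding was much alike whichever genotype was counted. The 274 fullest bins by wild-type calls alone shared 259 bins (94.5%) with the chosen set, and the 274 fullest by knockout calls alone shared 263 (96.0%). Counting only the regions called in all 4 libraries kept 244 (89.1%). These lists share their libraries with the rule, so the overlap describes the rule and is no independent check.

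Dense bins were unevenly spread over the chromosomes and lay next to each other. Chromosomes 6 and 11 held 35 each, together 25.5% of the dense bins against 10.9% of the occupied bins. Of the bins of chromosome 11, 30.7% were dense, and of those of chromosome 6, 24.6%. Chromosome 17 followed with 19 of 89 (21.3%) and chromosome 15 with 19 of 100 (19%). Chromosome 13 had none of 118, chromosome 14 had 1 of 120 and chromosome 18 had 2 of 85. The 274 bins formed 138 runs, of which 82 were single bins, and 192 bins had a dense neighbour. The longest run covered 75 to 86 Mb of chromosome 15, with 11 bins and 1068 regions. It was followed by 82 to 92 Mb of chromosome 6 (10 bins, 1016 regions), 24 to 33 Mb of chromosome 17 (9 bins, 930 regions) and 25 to 34 Mb of chromosome 2 (9 bins, 859 regions).

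Within a dense bin the open regions were close together but seldom touching. The median gap to the nearest other region was 4469 bp, against 6059 bp in bins of intermediate density (30 to 69 regions) and 13104 bp in sparse bins (1 to 29 regions). In dense bins 57.8% of regions had a neighbour within 5 kb and 10.9% had one within 1 kb. Union regions covered 9.25% of the sequence of dense bins, 4.59% of intermediate bins and 1.09% of sparse bins. Of the 2740 windows of 100 kb in dense bins, 36 (1.31%) held no region, the median held 9 and the fullest held 38. Short gaps follow from the rule.

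Members were somewhat longer than regions elsewhere. Their median length was 953 bp, against 889 bp outside dense bins, and 5.08% of them reached 2 kb, against 3.87% outside. Over regions called in all 4 libraries the difference was smaller, with medians of 1198 bp in members and 1168 bp outside. The calls themselves had median lengths of 925 and 881 bp in wild-type replicates 1 and 2 and of 964 and 874 bp in the knockout replicates. Outside dense bins these medians were 872, 817, 955 and 856 bp. The excess of members was thus larger in both wild-type libraries than in either knockout library.

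Summits of the members were higher in reads but lower in fold. A pileup, the number of read fragments stacked on the summit, was recovered for each call from its fold and p-value, together with the local background it was judged against. Over a window of 10 kb, such a background also counts the reads of the site itself. Over the 15351 members called in all 4 libraries the median pileup was 218 and 254 in wild-type replicates 1 and 2 and 156 and 194 in knockout replicates 1 and 2. Over the 27947 other regions called in all 4 the 4 medians were 187, 219, 130 and 161. Members thus exceeded the others by 1.17, 1.16, 1.20 and 1.20 times. The genome-wide level, the lowest background of each library, was 14.7, 15.1, 17.2 and 17.4, higher in both knockout libraries. The local background of the members, relative to the genome-wide level of the same library, had medians of 2.16, 2.21, 1.90 and 2.01 in that order, against 1.52, 1.55, 1.31 and 1.37 for the others. Accordingly, the median fold enrichment of members was lower in every library, at 6.60, 7.38, 4.63 and 5.40 against 7.87, 8.74, 5.39 and 6.34. Of the members, 13.5%, 14.3%, 10.7% and 9.25% were judged against the bare genome-wide level, compared with 28.9%, 29%, 33.5% and 30.7% of other regions. Higher local background in members than outside was seen on all 18 chromosomes that have dense bins, in all 4 libraries.

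**Figure D2:**
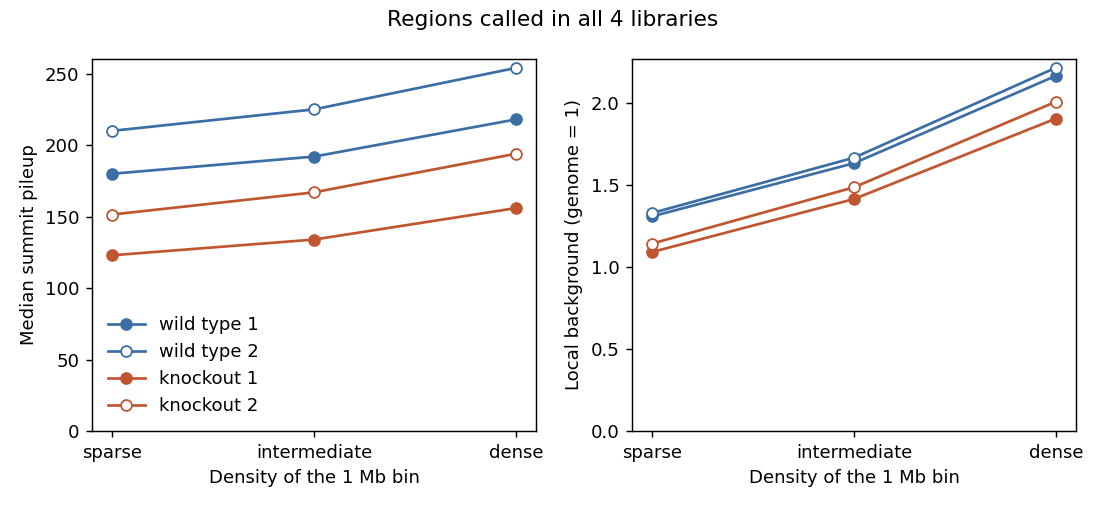
Median summit pileup (left) and median local background relative to the genome-wide level of the library (right) for regions called in all 4 libraries, by density of the bin, with 1 line per library (wild type blue, knockout orange, replicate 2 open symbols). Both measures are higher in dense bins in every library, and the local background shows the larger ratio.

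In each of the 5 fullest bins, the region of highest rank by p-value was a tall summit with a raised local background. Tall summits follow from this choice. In the fullest bin, the region at 140865477–140867712 of chromosome 4 had pileups of 3672 and 4295 in the wild-type and 3346 and 3492 in the knockout libraries. Its local background was 28.5, 29.1, 23.7 and 23.5 times the genome level, which left folds of 8.76, 9.72, 8.21 and 8.49. The nearest neighbour was 6264 bp away, and the part of the region's own reads in this background was not tested. At 80537428–80538825 of chromosome 10 the pileups were 5361, 5893, 4385 and 5045, at percentile 99.97 or higher of each list by p-value. On chromosome 8, the region 124159882–124161252 had pileups of 3912, 4132, 3924 and 4788. This was the only one of the 5 top regions in which a knockout library stood above both wild-type libraries. Its bin also holds a crowded window of 100 kb, whose copy number was not tested. The top regions at 117853348–117855239 of chromosome 11 (2256, 2567, 1710 and 2024) and 79211384–79213056 of chromosome 15 (3089, 3461, 2467 and 2915) were lower in both knockout libraries, as were most pileups in the genome.

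The knockout libraries kept a larger part of their calls in dense megabases. Of all calls, 34.2% (Wilson 95% interval 33.8–34.6) and 33.8% (33.4–34.2) of wild-type replicates 1 and 2 lay in dense bins, against 35.6% (35.2–36.1) and 36.0% (35.6–36.4) of the knockout replicates. The genotypes did not overlap. The mean was 34.0% ± 0.274 (SD, n = 2) in wild type and 35.8% ± 0.232 (SD, n = 2) in the knockout, a difference of 1.79 percentage points (exact permutation test over libraries, two-sided, p = 0.333, the smallest this design allows). Sparse bins showed the reverse, with 23.2% and 23.7% of wild-type calls against 21.9% and 21.6% of knockout calls. Intermediate bins held 42.5%, 42.5%, 42.5% and 42.5%. In numbers, dense bins had 19940 and 20997 wild-type calls and 17575 and 20449 knockout calls. The intervals cover counting error only. The lower fold, the shorter lists and the higher genome-wide background of the knockout go with the genotype, and their part in this difference was not tested. With lists cut to equal length the shares were 33.5%, 33.3%, 35.6% and 34.7%. The dense bins were chosen on these same calls, so the shares are a description and no independent test. With bins chosen on wild-type calls alone the difference was 1.58 percentage points, and with bins chosen on knockout calls alone 1.91.

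**Figure D3:**
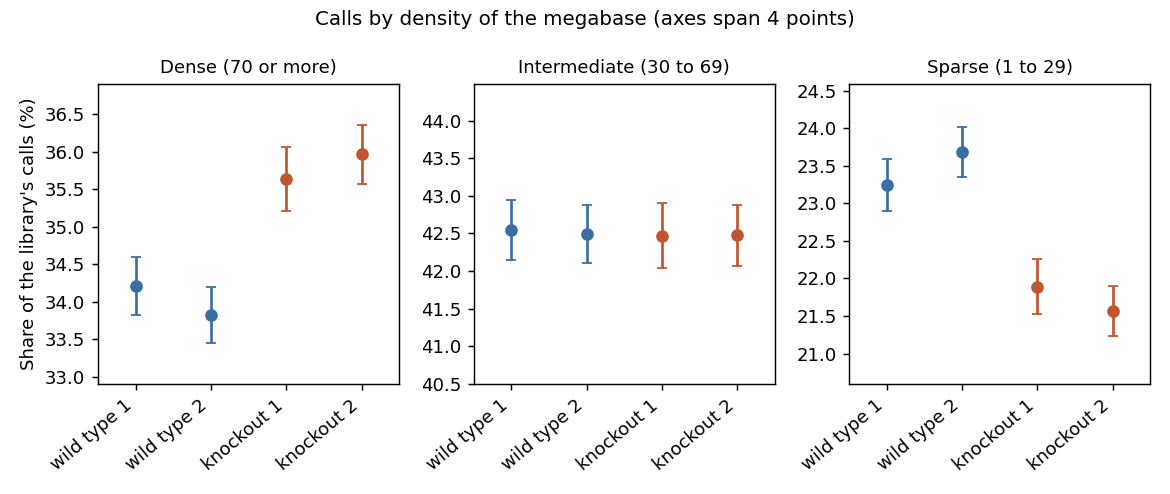
Share of each library's calls (%) in dense, intermediate and sparse bins, with Wilson 95% intervals as bars (wild type blue, knockout orange). Each axis spans 4 percentage points and does not start at 0. Both knockout libraries lie above both wild-type libraries in dense bins and below them in sparse bins, and all 4 coincide near 42.5% in intermediate bins.

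Bin by bin, the shift was seen in about as many dense bins as not. These counts too rest on the calls that chose the bins. Both knockout libraries had a larger share of their own calls than both wild-type libraries in 136 of 274 dense bins (49.6%), and a smaller share in 29 (10.6%). Over all occupied bins the percentages were 25.9% and 31.6%, and over bins with at least 20 regions 27.4% and 29.5%. In raw numbers of calls, both knockout libraries stood below both wild-type libraries in 95 dense bins (34.7%), against 48.5% of all bins, and above them in 7 (2.55%), against 3.42% of all bins. Of these 7, 5 lay on chromosome 6. The others were 15 to 16 Mb of chromosome 5 and 85 to 86 Mb of chromosome 1, where wild-type libraries had 46 and 45 calls and knockout libraries 57 and 62.

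Regions lost in the knockout were scarcer in dense megabases than elsewhere. A region is here called lost if it had a call in the 2 wild-type lists and in neither of the knockout lists, and gained in the reverse case. Of the members, 1208 (4.91%, Wilson 95% interval 4.65–5.19) were lost, against 7.05% of all regions and 8.18% of the regions outside (3809). The share was 6.80% in intermediate bins and 10.7% in sparse bins. Within dense bins it was 5.56% at 70 to 79 regions, 4.96% at 80 to 99 and 4.27% at 100 or more. Bins were graded on counts that include lost regions and regions called in 1 library only. The latter made up 15.7%, 17.5% and 18.7% of the regions in these grades, so the gradient is a description. With bins chosen on regions called in all 4 libraries, the lost share was 4.89% in members and 8.16% outside. On each of the 18 chromosomes with dense bins the lost share was lower in members than outside. The difference was widest on chromosome 19, with 5.51% against 12.1%, and was 3.76% against 4.88% on chromosome 6. Regions are not replicates, so these shares describe the 4 libraries and carry no test. Leaving out a library loosens the definition. The lost members then numbered 2579 and 1918 without wild-type replicates 1 and 2, and 1532 and 2813 without knockout replicates 1 and 2, and with equal lists they numbered 555. The share in members was below that outside in each of these settings (10.8% against 15.9%, 8.22% against 12.2%, 6.36% against 9.85%, 12.2% against 15.9%, and 2.73% against 5.60%).

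Gained members numbered 379 (1.54%, Wilson 95% interval 1.39–1.70), against 1.53% of all regions and 1.52% of those outside, so their share matched the background. The lost-to-gained ratio was 3.19 in members and 5.37 outside. Chromosome 6 held 98 of the gained members (25.9%). Its gained share was 2.95% in members and 3.60% in its other regions, so the excess was not particular to its dense bins. Without chromosome 6 the shares were 1.32% in members and 1.39% outside. The count depended on the lists. It was 745 with equal lists, where gained members exceeded the 555 lost ones, and 152 with a stricter q-value. Without wild-type replicate 1 or 2 it was 600 or 664, and without knockout replicate 1 or 2 it was 1996 or 1041. Without knockout replicate 1, the gained members also exceeded the lost ones (1532), while outside dense bins lost regions exceeded gained ones there too (ratio 1.70) and with equal lists (1.67).

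Up to the 60th percentile of the wild-type calls, loss was lower in dense bins than in intermediate and sparse bins in each band of rank. Regions called in both wild-type libraries were sorted by the lower of their percentiles by p-value in the 2 lists. In the bottom 10%, 28.3% of 1685 members had no call in either knockout library, against 33.8% of 1707 regions of intermediate bins and 43.5% of 925 regions of sparse bins. From the 20th to the 30th percentile the shares were 11.6%, 17.6% and 27.3%, and from the 40th to the 50th they were 3.84%, 6.98% and 12.5%. Above the 60th percentile 10 of 7990 members (0.125%) were lost, 12 of 9810 (0.122%) in intermediate bins and 35 of 5088 (0.688%) in sparse bins. Gained regions, sorted likewise by their knockout ranks, also had their lowest shares in dense bins up to the 30th percentile. In the bottom 10%, 20.8% of members had no call in either wild-type library, against 22.5% in intermediate and 31.9% in sparse bins. From the 20th to the 30th percentile the shares were 0.789%, 1.51% and 2.00%, so the pattern was not particular to losses. From the 30th to the 40th they were 0.322%, 0.343% and 0.266%. This sorting was added after the data were seen. It compares regions of like rank but not of like local background, whose part was not tested.

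**Figure D4:**
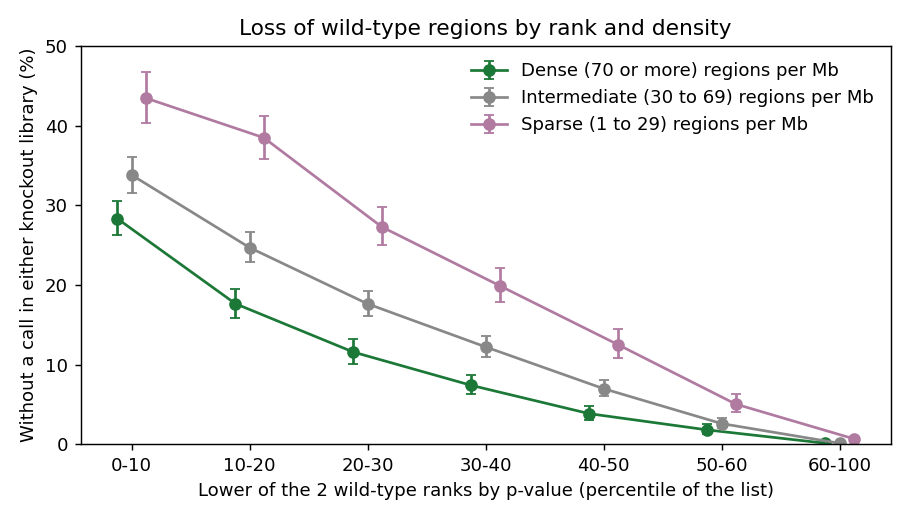
Share of regions called in both wild-type libraries that had no call in either knockout library (%), by the lower of their 2 wild-type ranks, for dense, intermediate and sparse bins, with Wilson 95% intervals as bars. Dense bins lie lowest in the 6 bands up to the 60th percentile, and above the 60th percentile dense and intermediate bins coincide near 0.12%.

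Lost and gained members were weak calls, as were lost and gained regions outside dense bins. Of the lost, 94.3% ranked in the lower part, under the median, of each wild-type list, and of the gained, 99.5% lay there in both knockout lists. The median pileup of lost members was 59.0 and 66.0 in the wild-type replicates, close to the 60 and 67.0 of lost regions outside, while their fold was lower, at 2.93 and 3.16 against 3.61 and 3.96. Gained members had pileups of 43.0 and 45.0 and folds of 2.15 and 2.27 in the knockout. There were 44 lost members above the median of both wild-type lists and 2 gained ones above the median of both knockout lists. By the lower of the 2 ranks, 1164 of 1208 lost members and 3632 of 3809 lost regions outside lay at or under the median. For gained regions the counts were 377 of 379 members and 708 of 709 outside.

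The lost member of highest rank lay at 129043155–129043836 of chromosome 4, with pileups of 247 and 291 and folds of 13.4 and 14.5. Its local background was 1.19 and 1.27 times the genome level, and its nearest neighbour was 12659 bp away. The other 4 had a strongly raised local background. They lay at 6792025–6792764 of chromosome 17 (pileups 461 and 492, background 5.89 and 5.66) and at 60188741–60189218 (714 and 801, background 14 and 13.6), 52456309–52456709 (494 and 565, background 7.23 and 7.46) and 102451332–102451673 (425 and 510, background 6.31 and 6.87) of chromosome 11. Their nearest neighbours were 2896 to 3728 bp away. The 342 bp of the last are fewer than the 380 bp of the shortest call of knockout replicate 1 and more than the 338 bp of that of knockout replicate 2.

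Among gained members, the highest rank was at 24759108–24759771 of chromosome 17, with pileups of 159 and 179 and folds of 4.59 and 4.79 in the knockout replicates. At 111844536–111844953 of chromosome 12 the pileups were 257 and 320 against a background of 5.50 and 5.93 times the genome level. The next 3, at 35190726–35191323 of chromosome 17, 84067328–84067940 of chromosome 12 and 148724029–148724701 of chromosome 5, lay below the median of both lists, with pileups between 77.0 and 105.

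Regions called in a single library also came more often from a knockout library in dense bins than in sparse bins. Of the members, 4281 (17.4%) were called in 1 library only, 2556 (10.4%) in 2 and 2422 (9.84%) in 3. Over all regions these shares were 16.9%, 12.2% and 10.1%. Among single-library members, 31.5% came from wild-type replicate 2 and 37.3% from knockout replicate 2, whereas in sparse bins 49.8% came from wild-type replicate 2 and 18.2% from knockout replicate 2. Wild-type replicate 1 and knockout replicate 1 gave 16% and 15.3% in dense bins and 17.9% and 14.1% in sparse bins. The contrast thus lay mainly in the 2 libraries with replicate number 2. Where 3 libraries had a call, the missing one was mostly knockout replicate 1, the shortest list. This held for 66.1% of members, 69.3% of sparse regions and 67.7% of all regions.

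Relative to other regions, pileups at the members were slightly higher in the knockout than in wild type. Over regions called in all 4 libraries, the log2 pileup of the knockout minus that of wild type had a median of −0.35 in members and −0.38 outside. These pileups were not scaled for depth. In members, replicate 2 stood above replicate 1 by 0.21 within wild type and by 0.30 within the knockout. In the 4 pairs of a wild-type with a knockout library, the medians of members were −0.39, −0.31, −0.091 and −0.61. Members exceeded other regions in these pairs by 0.033, 0.024, 0.029 and 0.035 on the log2 scale. Within wild type this excess of members over other regions was 0.0014 and within the knockout −0.0070. The excess, though small, was thus larger between genotypes than between replicates, which does not hold for the pileups themselves. Without chromosome 6 the 4 values ranged from 0.019 to 0.028. The direction held on 16 of the 18 chromosomes with dense bins, the exceptions being chromosomes 17 and 9. Relative to other regions, the fold of members also stood higher in the knockout, by 0.024 on the log2 scale (exact permutation test over libraries, two-sided, p = 0.333).

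Single bins departed further than this average. After each library was centred on its genome-wide median, both knockout libraries stood above both wild-type libraries in 127 of 274 dense bins (46.4%) and below in 58 (21.2%), against 33.3% and 32.4% of the 867 bins with at least 20 regions called in all 4 libraries. Chromosome 6 had 31 of its 35 dense bins above and 1 below, and of its 27 other bins with at least 20 such regions 18 stood above and 3 below. On the other chromosomes 96 of 239 dense bins stood above (40.2%) and 57 below (23.8%), against 29.8% and 34.4% of all such bins. Across the dense bins the difference had a median of 0.019 and quartiles of −0.016 and 0.052 on the log2 scale.

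The bin at 15 to 16 Mb of chromosome 5 stood apart from all the other dense bins, with a difference of 0.88, while the next highest had 0.22. It held 103 regions with a median gap of 803 bp, of which 8 were gained and 1 was lost. Its 60 regions called in all 4 libraries had median pileups of 81.0 and 77.5 in the wild-type and 103.5 and 114 in the knockout libraries. Here the knockout was thus higher also before centring, in pileups not scaled for depth. The genome-wide level was higher in the knockout as well, at 17.2 and 17.4 against 14.7 and 15.1. Calls numbered 80, 77, 84 and 90. This bin also held 2 of the 5 fullest windows of 100 kb in the genome, at 15 to 15.1 Mb and 15.8 to 15.9 Mb, with 27 regions each. Whether the sequence of this bin is single-copy was not tested, and in multi-copy sequence the region count, pileups and difference would not stand for single sites. Without the 7 dense bins that hold a window of 20 or more regions, 4.97% of the members were lost and 1.52% gained.

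The next bins were 114 to 115 Mb of chromosome 6 (0.22), with 122 regions of which 38 fell into a single window of 100 kb, and 13 to 14 Mb of chromosome 17 (0.20). The copy number of the crowded window on chromosome 6 was likewise not tested. The bin of chromosome 17 held 92 regions, of which 40.2% were called in all 4 libraries. At 85 to 86 Mb of chromosome 1 (0.19) that share was 38.5%, the lowest of any dense bin, with 7 gained regions and 1 lost. The highest share, 78.5%, was at 81 to 82 Mb of chromosome 10.

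At the other end, neighbouring bins moved together on chromosome 17. The bin at 31 to 32 Mb had the lowest difference of all, −0.19, with 10 lost and 2 gained regions of 109. Next to it, 32 to 33 Mb had −0.14, with 13 lost and 0 gained of 88, the highest lost share of any dense bin (14.8%). At 32 to 33 Mb the calls numbered 74, 74, 52 and 65. At 152 to 153 Mb of chromosome 1 the difference was −0.19, with 9 lost and 2 gained of 72, and at 47 to 48 Mb of chromosome 19 it was −0.17, with 7 lost and 0 gained of 88. The bin at 31 to 32 Mb of chromosome 2 also lost 13 regions and gained 0 of 101, but its pileups at the regions called in all 4 libraries did not depart (0.0044), and the genotypes overlapped.

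**Figure D5:**
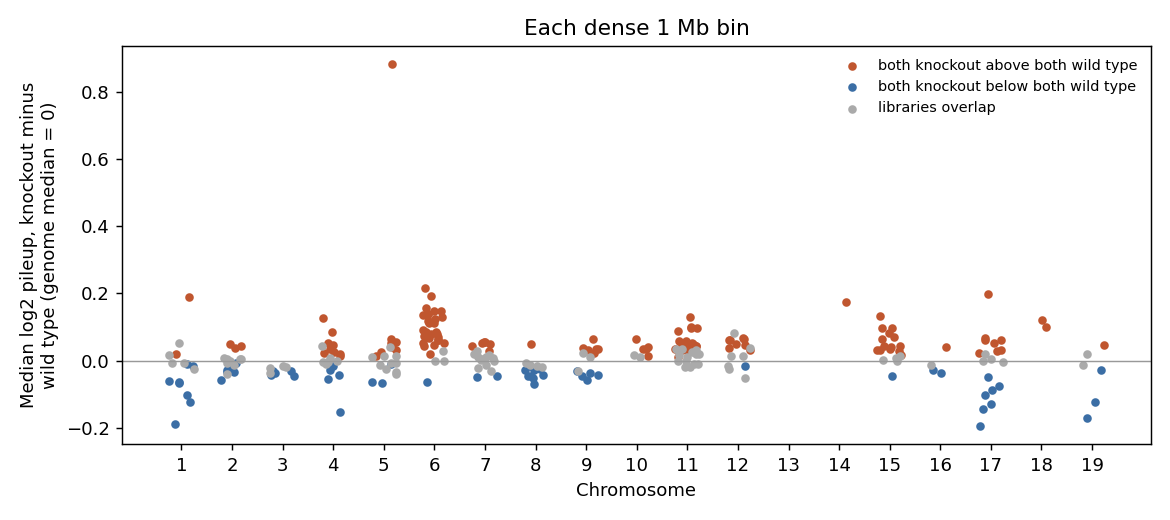
Each point is 1 dense bin, placed by chromosome, with the median log2 pileup of its regions called in all 4 libraries in the knockout minus wild type, after centring each library on its genome-wide median (0). Colours mark bins in which both knockout libraries lie above (orange) or below (blue) both wild-type libraries. Chromosome 6 lies mostly above 0, chromosome 17 has bins on both sides, and 1 bin of chromosome 5 stands at 0.88.

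Losses were spread thinly over the dense bins. The number lost per bin ranged from 0 to 13 with a median of 4, and 3 bins had none. The number gained ranged from 0 to 8 with a median of 1, and 95 bins had none. More regions were lost than gained in 225 bins, fewer in 21 and equally many in 28. Of the 21 bins with more gained than lost, 11 lay on chromosome 6, as did 7 of the 14 bins with 5 or more gained regions. The 6 bins with 10 or more lost regions lay on chromosomes 1, 2, 5, 8 and 17. Of the 9-bin run of chromosome 17, 6.56% of regions were lost, against 4.04% in the 10-bin run of chromosome 6, where 3.15% were gained.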

How the data were processed

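ATAC-seq was read from 4 peak lists in narrowPeak format, 1 per library, called in each library with MACS2 on GRCm39, per the submitters' processing notes. The sources used here do not name the aligner, versions, duplicate filter or any Tn5 shift. The fold enrichment (a ratio to local background), the −log10 p-value, the −log10 q-value and a display score (not used) of each call are as deposited by the authors. The lowest −log10 q-values were 1.31, 1.33, 1.31 and 1.30. Summit offsets were not used.

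Calls on chromosomes 1 to 19 were merged, binned and classed in Python 3.11.15 with pandas 2.3.3 and numpy 2.4.6. Where a library had several calls in a region, the one with the highest −log10 p was used. Pileups were solved from fold = (pileup + 1) / (background + 1) and the Poisson tail, and came out within 0.05 of a whole number for at least 99.998% of calls. A background within 1% of the lowest counted as the genome-wide level. Intermediate and sparse bins held 30 to 69 and 1 to 29 regions. The steps were tested on simulated lists.

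The members, lists and comparisons were chosen with earlier results of these data known. The named bins are the 10 fullest; the named regions are the strongest in each of the 5 fullest bins and the 5 lost and 5 gained members of highest rank. Other bins were named after their values were seen. The gene and promoter tables at hand are of another build, and the planned gene lists and motifs were not analysed here.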

Additional observations from a re-analysis of the deposited data

How the results depend on the processing

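Every difference between genotypes in the share of calls kept its direction, from 1.24 percentage points under a −log10 q of at least 5 to 2.04 with bins of 60 or more regions, and no setting could reach a threshold with these 4 libraries. With lists of equal length the lost members numbered 555 and the gained members 745, and the lost share of members minus that of other regions was −2.87 percentage points, against −3.27 as reported. The gained count was 152 with the stricter q-value. The gained share of members minus that of other regions was 0.018 percentage points as reported, −0.22 under that q-value, 0.30 for equal lists, −0.21 with bins chosen on wild-type calls and −0.18 with bins chosen on regions called in all 4 libraries, so it has no settled direction. The relative log2 pileup ratio was 0.028 as reported and 0.023 without chromosome 6. Leaving out each library in turn gave 1532 to 2813 lost and 600 to 1996 gained members, differences in lost share of −5.19 to −3.49 and in gained share of 0.089 to 2.51 percentage points, and a relative log2 pileup ratio of 0.027 to 0.034.

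The 2 sets of replicate numbers are not stated to pair libraries. With the replicate number as a block, the share difference was 1.79 percentage points, the relative log2 fold 0.024 and the relative log2 pileup ratio 0.029. The difference of replicate 2 from 1 correlated between genotypes with r = 0.16 over 15351 members called in all 4 libraries, which share depth and library. The settings by bins of the regions called in all 4 libraries and without the 7 dense bins that hold a crowded 100 kb window were chosen after seeing the data. Depth in reads is unknown here, which limits what a missing call shows. The genome-wide background was 17.2 and 17.4 in the knockout libraries, against 14.7 and 15.1 in wild type. Its part in the missing calls was not tested.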

Other observations

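Chromosomes X and Y, which the choice of members left out, had no bin of 70 or more union regions. The fullest of the 129 occupied bins of chromosome X held 43 regions and the fullest of the 7 occupied bins of chromosome Y held 19. Crowding on the scale of 100 kb was not limited to the dense megabases. Of the 12 windows of 100 kb with 20 or more regions, 10 lay in dense bins. The fifth fullest window, at 3 to 3.1 Mb of chromosome 3, lay outside them, with 24 regions of which 20 were called in all 4 libraries and 0 were lost or gained. The fullest, at 114.5 to 114.6 Mb of chromosome 6, held 38 regions, 32 of them called in all 4 libraries and none lost or gained, and the next, at 124.3 to 124.4 Mb of chromosome 8, held 33, of which 27 were called in all 4 and none were lost or gained. Whether these crowded windows are single-copy sequence was not tested.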
